A study of Mus musculus with 28 samples.

Results

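The genes of the mitochondrial respiratory chain and of the ATP synthase were examined in RNA sequencing libraries of microglia and astrocytes sorted from mouse brain. Members were chosen by name: mouse protein-coding genes starting with Nduf, Sdha, Sdhb, Sdhc, Sdhd, Uqcr, Cox4, Cox5, Cox6, Cox7, Cox8, Atp5, mt-Nd, mt-Co, mt-Cytb or mt-Atp. This gave 110 of the 21534 mouse protein-coding genes in the count table, 97 of them encoded in the nucleus and 13 in the mitochondrial genome. The nuclear members comprised 36 genes of complex I, 4 of complex II, 8 of complex III, 20 of complex IV, 17 of complex V and 12 assembly factors of complexes I and II. The mitochondrial members comprised 7 genes of complex I, 1 of complex III, 3 of complex IV and 2 of complex V.

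Libraries came from 14 mice, with 1 microglia and 1 astrocyte library per mouse. Every mouse, controls included, was APOE4fl/fl, that is, carried a floxed human APOE4 gene. The alleles that varied between the mice were APPPS1, which carries transgenes that lead to amyloid plaques, and ALDH1L1-CreERT, a tamoxifen-inducible Cre recombinase under an astrocyte promoter that acts on the floxed gene. By the sample labels the groups were APPPS1::APOE4fl/fl (5 mice, "APPPS1 Cre-negative"), APPPS1::APOE4fl/fl::ALDH1L1-CreERT (5 mice, "APPPS1 Cre-positive"), APOE4fl/fl (2 mice, "amyloid-free Cre-negative") and APOE4fl/fl::ALDH1L1-CreERT (2 mice, "amyloid-free Cre-positive"). The series design gives 4 mice for each APPPS1 group, and the labels were followed here. Tamoxifen was given to all mice, Cre-negative ones too, as 2 intraperitoneal doses of 100 mg/kg at 3.8 months of age. Cells were sorted 10 days later with antibodies to Cd11b, a surface protein of microglia and other myeloid cells, and to ACSA-2, a surface antigen of astrocytes. The labels do not name the APOE4 exons between the loxP sites.

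The respiratory chain passes electrons from NADH (complex I) and succinate (complex II) through ubiquinone to complex III, cytochrome c and complex IV, which reduces oxygen. Complexes I, III and IV pump protons across the inner mitochondrial membrane, and the ATP synthase, complex V, uses the gradient to make ATP. Complexes I, III, IV and V combine subunits from both genomes, whereas all subunits of complex II are nuclear. Mitochondrial genes are transcribed as long polycistronic RNAs that are cut into separate messengers, and nuclear subunits are transcribed gene by gene. Several complex IV subunits exist in a ubiquitous and a tissue-restricted isoform.

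Total counts per library ran from 26162612 to 63802747, of which human genes took 0.0420% to 0.237%. In mouse 459 (APPPS1, Cre-positive) each library went against its label. Its library labelled astrocyte held 29236 CPM (counts per 1000000 mouse gene counts) summed over 8 microglia markers and 179 CPM over 8 astrocyte markers, and its library labelled microglia held 82.2 CPM and 24303 CPM. Mouse 459 was left out, which left 13 libraries per sort and 4 APPPS1 Cre-positive mice. Elsewhere the astrocyte markers summed to 16201 to 25606 CPM in astrocytes and 127 to 367 CPM in microglia. Microglia markers summed to 28510 to 35986 CPM in 12 microglia libraries, to 15200 CPM in that of mouse 26 (amyloid-free, Cre-positive), and to 58 to 94 CPM in astrocytes. The mouse 26 library also held the most monocyte and neutrophil marker counts (4628 CPM). Astrocyte libraries also held oligodendrocyte markers, at 2665 to 22476 CPM in sum. In astrocytes human APOE stood between 507 and 926 CPM in the 6 Cre-positive mice and between 1052 and 1864 CPM in the 7 Cre-negative mice, without overlap. Same-group libraries came from separate mice.

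As a share of mouse gene counts, astrocytes held more respiratory chain RNA than microglia from both genomes. The 97 nuclear genes took 1.33% to 1.82% of the mouse counts in the 13 astrocyte libraries (median 1.67%) and 0.807% to 1.16% in the 13 microglia libraries (median 0.981%). No microglia library reached the lowest astrocyte library. For the 13 mitochondrial genes the shares were 1.90% to 3.72% in astrocytes (median 2.83%) and 0.771% to 2.16% in microglia (median 0.998%). Here the sorts overlapped through mouse 26, whose microglia stood at 2.16%. Without the amyloid-free Cre-positive mice 22 and 26, microglia ended at 1.26% and astrocytes began at 2.42%. Mouse 22 had the lowest astrocyte share (1.90%), while its microglia, at 1.22%, lay within the range of the others. Exact 95% binomial intervals of these shares were at most 0.0041 and 0.00588 percentage points either side for the nuclear and mitochondrial sets, and cover counting error only. On the log2 scale the summed nuclear level differed between microglia and astrocytes by -0.79 (a ratio of 0.576) and the summed mitochondrial level by -1.31 (a ratio of 0.404), averaged over the 4 genotype groups. The pooled SDs between mice were 0.148 and 0.265. These levels were scaled to library totals, by which the median log2 difference over all genes tested was -0.64. The log2 ratio of mitochondrial to nuclear counts had a median of 0.82 in astrocytes (0.25 to 1.16) and of 0.11 in microglia (-0.38 to 1.14, and at most 0.40 without mice 22 and 26). In sorted populations such as these, fewer cells of a type and less RNA per cell cannot be told apart. Oligodendrocyte markers summed to 2665 to 22476 CPM in the astrocyte libraries. The part of those cells in these shares, and in the gene by gene sort differences below, was not tested.

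**Figure D1:**
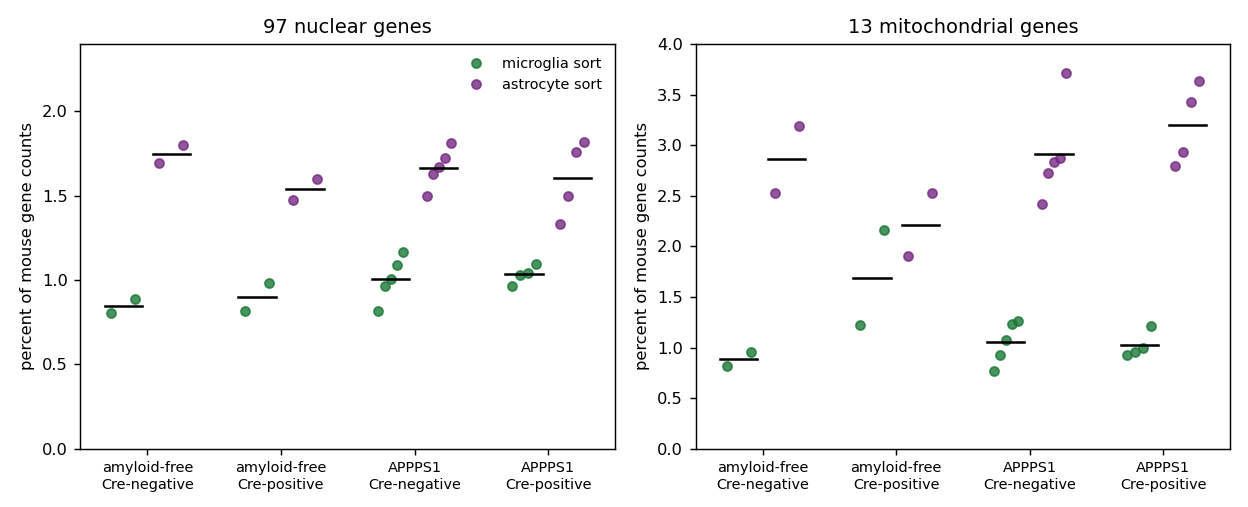
Share of mouse gene counts taken by the 97 nuclear genes (left) and the 13 mitochondrial genes (right) in percent, by genotype group, with microglia in green and astrocytes in purple. Points are libraries without mouse 459 and lines are group means. Nuclear shares of the sorts do not overlap, and the highest microglia value on the right, 2.16%, is that of mouse 26.

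Sort differences were tested gene by gene with edgeR's quasi-likelihood test, fitted over all mouse genes with Benjamini-Hochberg adjustment, and 0.05 was the adjusted p below which a gene was taken to pass. Log2 differences are microglia minus astrocytes, scaled by TMM, a method that centres each library on the bulk of its genes, and errors are standard errors. Of 96 nuclear members tested, 66 were lower and 11 higher in microglia, and of 13 mitochondrial members 12 were lower. The nuclear split became 71 lower and 9 higher with DESeq2's size factors, and 85 lower and 5 higher with library totals alone, while the mitochondrial count stayed at 12. Of the genes called higher, Cox4i1 (0.18), Uqcrh (0.20) and Atp5e (0.22) no longer passed with library totals alone. Across all 21612 genes tested 76.5% passed (35.4% higher and 41.1% lower), so passing was common. The median log2 difference was -0.48 over the nuclear members and -0.57 over the mitochondrial members, against -0.18 over all genes. That last value shifted with the scaling, to -0.30 with DESeq2's size factors and -0.64 with library totals alone, while the nuclear median differed from it by -0.30 and the mitochondrial median by -0.38 to -0.39 under each. In CPM, 57 of 97 nuclear members were lower in every microglia library than in every astrocyte library and 2 were higher. Of the 18208 mouse genes with 280 or more counts, a floor not set for the members, 28.8% and 14.1% were so separated. Of the 13 mitochondrial members only mt-Nd2 was lower in every microglia library (7.69%), a share below that of those genes.

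Of the 36 nuclear complex I genes, 25 were lower and 3 higher in microglia (median -0.55), a number of calls near the 76.5% of all genes that passed. Ndufa12, an accessory subunit, ran from 221 to 347 CPM in astrocytes (median 292) and from 47.4 to 89.6 CPM in microglia (median 73.8). The 2 sorts did not overlap, and the log2 difference was -1.62 ± 0.11 (adjusted p = 6.8e-12, edgeR). Ndufs1, a core iron-sulfur subunit, averaged 200 CPM in astrocytes and 67.5 CPM in microglia (-1.07 ± 0.07), and the accessory subunits Ndufs5 (-1.27 ± 0.10) and Ndufb6 (-1.28 ± 0.11) were lower as well. Ndufa1, a membrane-arm accessory subunit encoded on the X chromosome, went the other way, with 41.6 to 66.9 CPM in astrocytes and 47.0 to 171 CPM in microglia (1.27 ± 0.15, adjusted p = 6.9e-08, edgeR) and some overlap. Ndufa6 (0.29) and Ndufa9 (0.22) were also called higher, but their sign turned with library totals alone.

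Succinate dehydrogenase, complex II, was lower in microglia in 3 of 4 genes: the iron-sulfur subunit Sdhb (-0.50 ± 0.10), the membrane anchor Sdhc (-0.38 ± 0.09) and the flavoprotein Sdha (-0.26 ± 0.09), while the other anchor, Sdhd, did not pass (0.13 ± 0.10). Of the 8 nuclear complex III genes 5 were lower and 1 was higher (median -0.60). Uqcrfs1, the Rieske iron-sulfur protein, averaged 227 CPM in astrocytes and 81.0 CPM in microglia (-1.08 ± 0.09), with no overlap between 187 to 262 CPM and 63.1 to 97.1 CPM. The core protein Uqcrc2 (-0.72 ± 0.08) and the small subunit Uqcr10 (-0.85 ± 0.12) were lower too, and the hinge protein Uqcrh was higher (0.66 ± 0.12).

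Among the 19 complex IV genes tested, 13 were lower and 3 higher in microglia (median -0.53), and the widest differences lay in the restricted isoforms. Cox6a2, known as the heart and skeletal muscle form of subunit VIa, ran from 4.48 to 136 CPM in microglia and from 0 to 0.461 CPM in astrocytes (7.21 ± 0.56, adjusted p = 6.7e-11, edgeR). Its ubiquitous partner Cox6a1 did not pass (-0.11). Ndufa4l2, a hypoxia-inducible paralogue of the complex IV subunit Ndufa4, ran from 6.98 to 145 CPM in astrocytes and from 0 to 0.689 CPM in microglia (-7.03 ± 0.62). Cox4i2, the lung-type and oxygen-regulated form of subunit IV, ran from 9.38 to 60.3 CPM in astrocytes and from 0 to 1.19 CPM in microglia (-5.38 ± 0.42). Each of these 3 isoforms separated the sorts completely.

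Cox6b2 (-2.19 ± 0.19), known from testis, Cox7a1 (-2.82 ± 0.30), a muscle form, and Cox7b2 were also lower in microglia. Cox7b2 had 758 counts over the 13 astrocyte libraries and 0 over the 13 microglia libraries, which made it at least 244-fold higher in astrocytes against a floor of 3 counts over the microglia libraries. Expressed as a share of the isoform pair, each gene divided by its transcript length, Cox4i2 made up 5.09% ± 2.86 (SD, n = 13) of subunit IV RNA in astrocytes and 0.0789% ± 0.0598 in microglia. Ndufa4l2 made up 11.4% of its pair in astrocytes and 0.154% in microglia. The ubiquitous Cox4i1 was higher in microglia (0.65 ± 0.10), as was Cox7a2l, a factor that joins complexes III and IV in supercomplexes. Cox7a2l ran from 85.6 to 129 CPM in astrocytes and from 208 to 333 CPM in microglia (1.86 ± 0.10, adjusted p = 8.6e-14, edgeR).

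Pericyte and smooth muscle markers varied between the astrocyte libraries alongside Cox4i2 and Ndufa4l2. The astrocyte library of mouse 759 had the most of both genes (60.3 and 145 CPM) and the highest sum of 8 such markers (2723 CPM), and mouse 439 came second in Cox4i2 and in the markers (45.9 and 1836 CPM). Mouse 26 had the lowest Cox4i2 and Ndufa4l2 levels (9.38 and 6.98 CPM), with markers at 259 CPM, and mouse 22 had 9.40 and 7.70 CPM, with markers at 217 CPM. In microglia those markers summed to 1.75 to 68.9 CPM, with 3 of the 8 (Kcnj8, Abcc9 and Myh11) under 1 CPM on average and none at 0 throughout. Endothelial marker sums varied between the astrocyte libraries as well. They were 962 and 1096 CPM in mice 759 and 439, and 102 and 72.3 CPM in mice 26 and 22. The astrocyte library of mouse 759 also had the most oligodendrocyte marker counts (22476 CPM). The part of any of these other cells in the isoform differences was not tested.

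**Figure D2:**
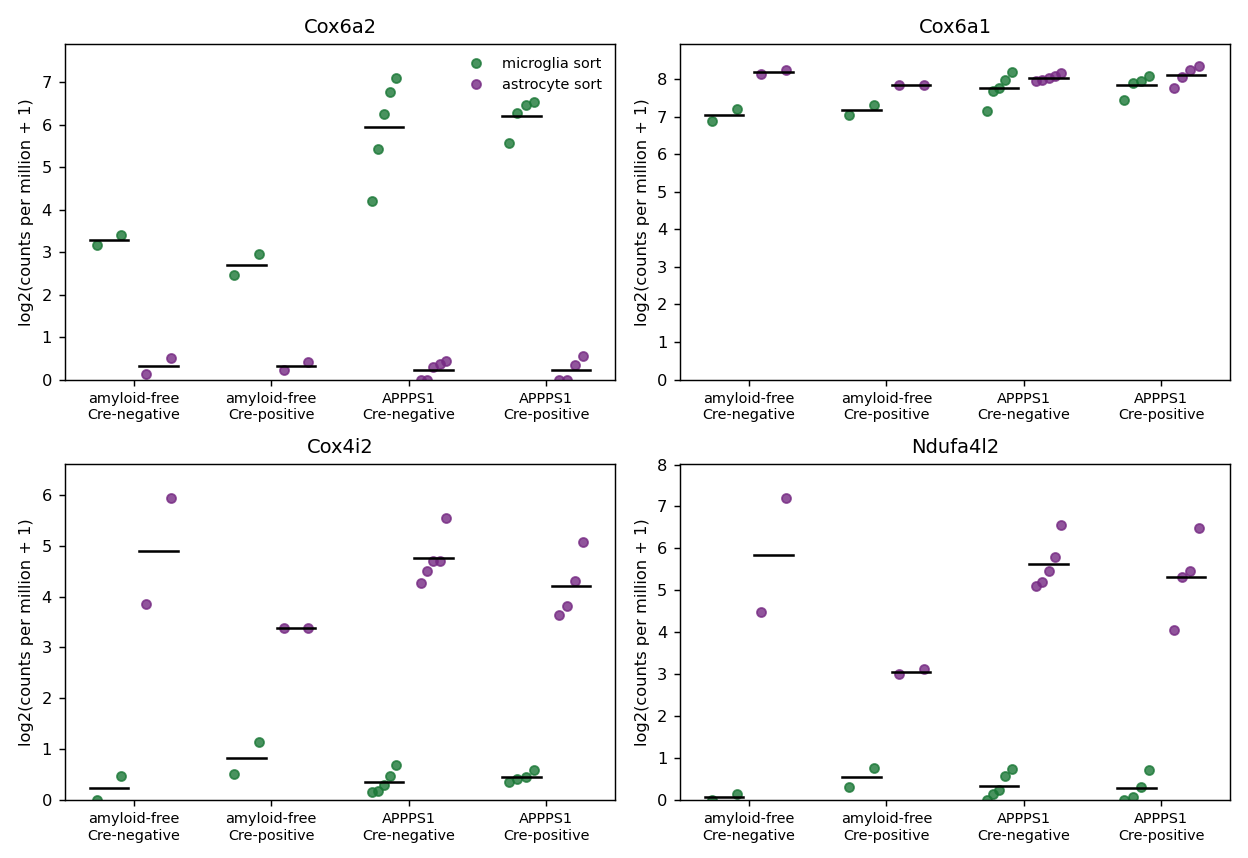
Levels of 4 complex IV genes in each library, as log2(CPM + 1), by genotype group, with microglia in green and astrocytes in purple. Lines are means of the plotted values. Cox6a2 is near 0 in every astrocyte library and highest in APPPS1 microglia, while Cox4i2 and Ndufa4l2 reach at most 1.19 and 0.689 CPM in microglia.

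Of the 17 complex V genes 12 were lower and 2 higher in microglia (median -0.47). Atp5b, the catalytic beta subunit, ran from 676 to 867 CPM in astrocytes and from 230 to 384 CPM in microglia (-0.94 ± 0.09). The membrane ring subunit c is encoded by 3 nuclear genes for 1 identical mature protein, and these differed in opposite directions. Atp5g3 averaged 183 CPM in astrocytes and 63.7 CPM in microglia (-1.13 ± 0.11), whereas Atp5g2 averaged 84.2 and 107 CPM (0.69 ± 0.11). Per transcript length, Atp5g3 made up 68.6% ± 2.71 of the sum of both in astrocytes and 37.7% ± 3.16 in microglia (SD, n = 13 each). The small stalk subunit Atp5e was higher in microglia (0.68 ± 0.11). Among the 12 assembly factors 8 were lower and 2 higher, with Ndufaf4 (71.2 and 20.8 CPM, -1.32 ± 0.10) and Ndufaf5 (-1.12 ± 0.13) lower and Ndufaf7, a methyltransferase that modifies a core subunit, higher (0.65 ± 0.08).

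Mitochondrial genes were lower in microglia to unequal degrees. mt-Nd2 (-1.03 ± 0.12), mt-Co1 (-0.98 ± 0.14), mt-Cytb (-0.97 ± 0.13) and mt-Nd4 (-0.96 ± 0.12) differed most. mt-Cytb, the only mitochondrial subunit of complex III, ran from 6503 to 13040 CPM in astrocytes and from 2285 to 6693 CPM in microglia, and only the microglia of mouse 26 entered the astrocyte range. mt-Nd5 (-0.67), mt-Co3 (-0.64), mt-Atp6 (-0.57), mt-Nd4l (-0.53), mt-Atp8 (-0.52), mt-Co2 (-0.43), mt-Nd1 (-0.38) and mt-Nd6 (-0.38) were lower as well. mt-Nd3 did not pass (-0.40 ± 0.60), and its split values are described further on. Per kilobase of transcript, mt-Cytb led in both sorts, with 8835 CPM per kb in astrocytes and 3097 in microglia, followed by mt-Co1 (4934) and mt-Nd1 (4234) in astrocytes and by mt-Nd1 (2214) and mt-Co1 (1778) in microglia. The median nuclear member stood at 155 CPM per kb in astrocytes and 88.1 in microglia.

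**Figure D3:**
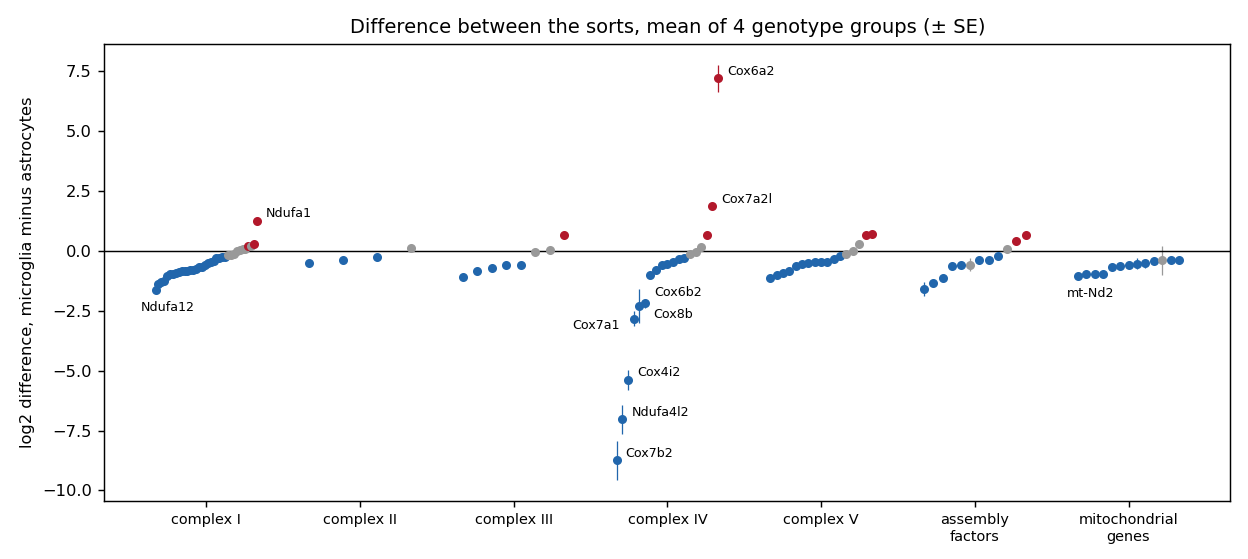
Log2 difference of each member between the sorts, microglia minus astrocytes, averaged over 4 genotype groups, with its standard error, in columns by complex. Red points passed higher in microglia, blue points lower, and grey points did not pass. Most subunits lie between 0 and -1.62, and complex IV spreads from Ndufa4l2 at -7.03 and Cox7b2 below it to Cox6a2 at 7.21.

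The sort difference was then taken within each genotype group. Nuclear members passed in 58 of 96 genes in amyloid-free Cre-negative mice (55 lower, 3 higher), where 48.4% of all genes passed (22.6% higher and 25.7% lower), and in 55 genes in amyloid-free Cre-positive mice (48 lower, 7 higher), where 49.5% did (24.2% higher and 25.3% lower). In APPPS1 mice 54 passed without Cre (44 lower, 10 higher) and 51 with Cre (36 lower, 15 higher), where 66.6% of all genes (31% higher and 35.5% lower) and 64.3% (29.3% higher and 35% lower) passed. With library totals alone the latter splits became 81 lower and 4 higher, and 73 lower and 4 higher. Mitochondrial members were lower in microglia in 10, 11 and 11 of 13 genes in the amyloid-free Cre-negative, APPPS1 Cre-negative and APPPS1 Cre-positive mice. In amyloid-free Cre-positive mice 0 were lower and mt-Co2 was higher (0.78 ± 0.31, adjusted p = 0.043, edgeR). With the mouse as a block that count rose to 2, and DESeq2 called 0. Leaving out mouse 465 took the mitochondrial count in amyloid-free Cre-negative mice from 10 to 0, and the nuclear count from 58 to 32. Leaving out mouse 22 took the nuclear count in amyloid-free Cre-positive mice from 55 to 32.

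Amyloid was compared within microglia, as APPPS1 minus amyloid-free, averaged over the 2 Cre states. Nuclear respiratory chain genes were higher with amyloid in 17 of 94 genes tested and lower in 0, where 9.58% of all 17593 genes passed (6.06% higher and 3.52% lower). In all, 85 of the 94 had a positive difference, with a median of 0.34, against -0.05 over all genes. The 13 mitochondrial genes had a median of -0.23, with 1 positive difference, and 0 passed with edgeR. An unadjusted p under 0.05 was reached by 5, and DESeq2 called 3 lower. The 17 calls rested on few amyloid-free mice: 1 gene passed without mouse 465, 2 without mouse 759, 3 without mouse 26 and 0 without mice 22 and 26, while the median without the last pair was 0.33. Leaving out mouse 469, an APPPS1 Cre-negative animal, raised the count to 43. DESeq2 called 37 and library totals alone left 9, all higher. The summed nuclear level was 8486 ± 581 and 8984 ± 1176 CPM in amyloid-free Cre-negative and Cre-positive microglia (SD, n = 2 each), and 10076 ± 1313 (n = 5) and 10341 ± 525.8 CPM (n = 4) in APPPS1 ones, so the ranges overlapped.

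Among complex I genes 8 of 36 rose. Ndufa1 was at 47.0, 61.5, 99.8 and 62.2 CPM in the microglia of the amyloid-free mice 465, 759, 26 and 22. In APPPS1 mice it ran from 65.4 to 171 CPM, with a median of 135 CPM, and 7 of the 9 libraries exceeded the highest amyloid-free one. The log2 difference was 1.10 ± 0.24 (adjusted p = 0.015, edgeR). Ndufa10, Sdhc and Cox6a2 were the 3 of 97 nuclear members (3.09%) that were higher in every APPPS1 than in every amyloid-free microglia library. Of the 18208 mouse genes with 280 or more counts 1.92% were, so separation was near the background share. Ndufa10, a subunit of the membrane arm, did not overlap, with 62.0 to 72.4 CPM in amyloid-free and 75.8 to 92.7 CPM in APPPS1 microglia (0.48 ± 0.12, adjusted p = 0.026). The remaining 6 accessory subunits were Ndufb6 (0.65), Ndufb9 (0.59), Ndufa12 (0.58), Ndufs5 (0.54), Ndufa9 (0.52) and Ndufb8 (0.48). None of the 7 core catalytic subunits encoded in the nucleus passed.

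In complex II the anchor Sdhc rose, from 90.4, 90.0, 73.5 and 82.8 CPM in mice 465, 759, 26 and 22 to 97.2 to 124 CPM in APPPS1 mice (0.53 ± 0.13, adjusted p = 0.022, edgeR). The groups did not overlap. Sdhb (0.38), Sdhd (0.28) and Sdha (0.21) had positive differences that did not pass. In complex III the small subunit Uqcr11 rose from 73.2 to 92.7 CPM in amyloid-free to 83.9 to 149 CPM in APPPS1 microglia (0.68 ± 0.17, adjusted p = 0.025, edgeR), and the other 7 genes did not pass, all with positive differences. In complex V, 4 of 17 genes rose: Atp5g2 (0.70 ± 0.17) and Atp5g1 (0.62 ± 0.14) for subunit c, Atp5d (0.58 ± 0.15) of the central stalk, and Atp5b (0.53 ± 0.14). Atp5b was at 285, 248, 236 and 230 CPM in mice 465, 759, 26 and 22 and ran from 280 to 384 CPM with amyloid. Of the 12 assembly factors 0 passed with edgeR and the lowest adjusted p was 0.062, for Ndufaf8 (0.46 ± 0.15).

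Complex IV held the widest response. Cox6a2 was at 8.01 and 9.56 CPM in the amyloid-free Cre-negative mice 465 and 759 and at 4.48 and 6.72 CPM in the Cre-positive mice 26 and 22. In APPPS1 Cre-negative microglia it was at 108, 17.3, 136, 74.7 and 41.9 CPM in mice 774, 469, 779, 447 and 439, and in Cre-positive microglia at 76.7, 86.9, 91.6 and 46.0 CPM in mice 475, 460, 458 and 443. Every APPPS1 library exceeded every amyloid-free one. The log2 difference was 3.59 ± 0.49 (adjusted p = 0.0015, edgeR). Without mice 22 and 26 it was 3.25 and no longer passed. Its ubiquitous partner Cox6a1 rose less, from 117 to 159 CPM to 142 to 290 CPM (0.86 ± 0.20, adjusted p = 0.018, edgeR). Per transcript length, Cox6a2 made up 5.30% ± 0.16 of the pair in amyloid-free Cre-negative microglia and 3.23% ± 1.30 in Cre-positive microglia (SD, n = 2 each). With amyloid the share was 20.4% ± 9.03 (n = 5) and 21.3% ± 2.90 (n = 4). Cox6a2 (chr7:128205435-128206387, minus strand) lies within Itgad, on the opposite strand, which averaged 0.519 CPM without and 0.697 CPM with amyloid. Of its other neighbours Itgax, encoding the integrin CD11c, 54778 bases away, rose too (2.15 ± 0.40, adjusted p = 0.0078, edgeR). Cox5b rose as well (0.69 ± 0.19), while Cox8a (0.57, adjusted p = 0.051) and Cox7a2l (0.42, adjusted p = 0.060) did not pass with edgeR.

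**Figure D4:**
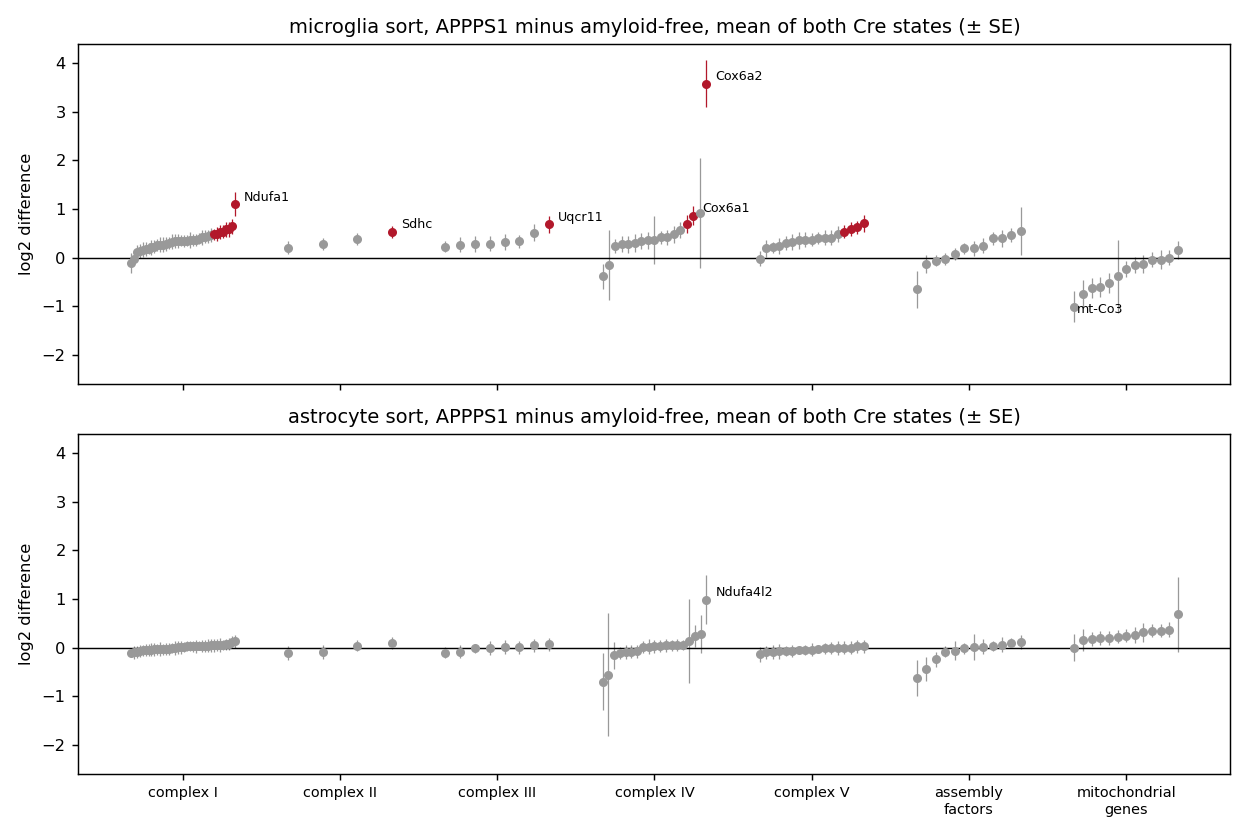
Log2 difference of each member between APPPS1 and amyloid-free mice, averaged over both Cre states, with its standard error, in microglia (top) and astrocytes (bottom), in columns by complex. Red points passed higher with amyloid and grey points did not pass. In microglia 17 nuclear genes are red, led by Cox6a2 at 3.59, and in astrocytes 0 points are coloured.

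Taken without Cre, the amyloid comparison in microglia called 0 members with edgeR (2 nuclear genes with DESeq2), where 0.313% of all genes passed (0.279% higher and 0.0341% lower). There, 26 nuclear members had an unadjusted p under 0.05, 85 of 94 were positive, the median was 0.33, and Cox6a2 stood at 3.25 ± 0.67 (adjusted p = 0.059, edgeR). In Cre-positive mice 8 nuclear genes were higher, where 7.05% of all genes passed (3.65% higher and 3.39% lower): Cox6a2 (3.92), Ndufb6 (0.87), Ndufa12 (0.80), Ndufa9 (0.79), Atp5g1 (0.73), Ndufaf2 (0.68), Sdhc (0.65) and the core subunit Ndufs3 (0.59). That count was 0 without mouse 26 or without mouse 458, and 19 without mouse 469. The difference between these 2 amyloid effects called 0 members with edgeR and DESeq2, where 0% of all genes passed with edgeR, with 2 nuclear and 8 mitochondrial members at an unadjusted p under 0.05.

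The mitochondrial medians had opposite signs in the 2 Cre states. The median with amyloid was 0.25 in Cre-negative microglia, with 8 of 13 positive, 0 passing with edgeR or DESeq2 and 2 at an unadjusted p under 0.05, and -0.72 in Cre-positive microglia, with 0 of 13 positive. There mt-Co3 fell (-1.11 ± 0.29, adjusted p = 0.036, edgeR), as did mt-Co2 (-1.09 ± 0.29, adjusted p = 0.037, edgeR), both core subunits of complex IV. The remaining mitochondrial core subunit of that complex, mt-Co1, did not pass (-0.59 ± 0.28, adjusted p = 0.19, edgeR). Counts of mt-Co3 and mt-Co2, unlike most of those of mt-Co1, were split near evenly with identical nuclear copies, as described further on. Both calls were lost without any 1 of mice 475, 458, 443 and 26. mt-Co3 was at 279 CPM in mouse 26 and 146 CPM in mouse 22, against 67.5, 103, 100 and 74.4 CPM in the Cre-positive APPPS1 mice 475, 460, 458 and 443. In Cre-negative microglia it was at 71.0 and 117 CPM without amyloid and at 54.7 to 95.9 CPM with it. The whole mitochondrial set stood at 2.16% and 1.22% of counts in the microglia of mice 26 and 22 and at 0.821% and 0.960% in the Cre-negative mice 465 and 759. Microglia of mouse 26 also had the lowest microglia marker sum (15200 CPM), the highest monocyte and neutrophil marker sum (4628 CPM) and the highest endothelial marker sum (346 CPM). In those of mouse 22 the sums were 28880, 2340 and 147 CPM. None of these markers was at 0 throughout the microglia libraries. Microglia of the APPPS1 Cre-negative mouse 439 had 3573 CPM of monocyte and neutrophil markers, more than mouse 22. Their endothelial sum was 44.6 CPM and their mitochondrial share 0.924%. The part of monocytes, neutrophils and endothelial cells in the mitochondrial values was not tested. With mice 22 and 26 left out, the mitochondrial median with amyloid was 0.26, with 8 of 13 positive.

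Marker lists also held genes that passed in the microglial amyloid comparison, where 6.06% of all genes were higher and 3.52% lower. Of 8 microglia markers 3 were higher with amyloid (Trem2 and C1qa among them), of 8 astrocyte markers 4 were lower and 1 was higher (Gfap), and 5 of 8 endothelial and 2 of 8 neuronal markers were lower. Astrocyte markers summed to at most 367 CPM in microglia libraries, against 16201 CPM or more in astrocytes. Monocyte and neutrophil markers summed to 1033 to 4628 CPM in amyloid-free microglia and to 151 to 3573 CPM in APPPS1 microglia. Border macrophage markers summed to 156 to 459 CPM without amyloid and to 117 to 244 CPM with it. In astrocytes Cox6a2 was at most 0.461 CPM. The part of other cells in the nuclear differences was not tested.

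In astrocytes no member passed for amyloid. Averaged over Cre, edgeR and DESeq2 called 0 of 96 nuclear and 0 of 13 mitochondrial members, where 0% of 20052 genes passed with edgeR. The nuclear median was -0.003, with 0 members at an unadjusted p under 0.05, and the mitochondrial median was 0.25, with 12 of 13 positive and 3 at an unadjusted p under 0.05. In Cre-positive astrocytes, where 0.663% of all genes passed (0.578% higher and 0.0848% lower), all 13 mitochondrial differences were positive (median 0.55) and 7 had an unadjusted p under 0.05, while edgeR called 0 members and DESeq2 1 nuclear gene. mt-Nd1 had the lowest p among them (0.56 ± 0.19, adjusted p = 0.24, edgeR). In Cre-negative astrocytes 0% of genes passed with edgeR, DESeq2 called 0 members, the mitochondrial median was 0.01 and 0 members had an unadjusted p under 0.05. The difference of the amyloid effect between the sorts, microglia minus astrocytes, passed for Cox6a2 alone (4.17 ± 1.03, adjusted p = 0.041, edgeR), where 1.5% of all genes passed (0.773% higher and 0.731% lower). Its astrocyte side was near the floor, with 114 Cox6a2 counts over 13 libraries. Tested within astrocytes, the amyloid difference of Cox6a2 was -0.56 ± 1.27. With the mouse as a block, or without mice 22 and 26, 0 members passed, and DESeq2 called 10. The call was also lost on leaving out any 1 of mice 774, 779, 447, 460, 458, 465, 759, 26 and 22. Of the nuclear members 87 of 96 had a positive difference (median 0.38), and of the mitochondrial members 0 of 13 did (median -0.57).

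Cre was compared to see whether removal of astrocytic APOE4 went with a change in these genes, and no member passed with edgeR in either sort. In APPPS1 microglia, where 0.00568% of all genes passed, the nuclear median was 0.04, with 1 nuclear and 1 mitochondrial member at an unadjusted p under 0.05. DESeq2 called 0 members in APPPS1 mice of either sort. In APPPS1 astrocytes, where 0.00997% passed, the nuclear median was -0.10, with 21 of 96 positive, and 2 nuclear members and 1 mitochondrial member had an unadjusted p under 0.05. The summed nuclear level differed by 0.05 in microglia and -0.06 in astrocytes on the log2 scale, within the pooled SD of 0.148. The difference of this Cre effect between the sorts called 0 members with edgeR and DESeq2, had 0 at an unadjusted p under 0.05, and 0.00463% of all genes passed.

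In amyloid-free mice, 2 against 2, the mitochondrial medians had opposite signs in the 2 sorts, and 0 members passed with edgeR. In microglia 0.0114% of all genes passed, 12 of 13 mitochondrial differences were positive (median 0.81) and 10 had an unadjusted p under 0.05, with mt-Nd6 lowest (0.98 ± 0.26, adjusted p = 0.19, edgeR). DESeq2 called 1, and without mouse 22 edgeR called 6. Of the nuclear members 6 had an unadjusted p under 0.05, and DESeq2 called 0. In astrocytes 0.204% passed (0.0449% higher and 0.16% lower), 0 of 13 were positive (median -0.48) and 4 had an unadjusted p under 0.05, while 8 nuclear members did. Ndufa4l2 had the lowest p (-3.51 ± 0.88, adjusted p = 0.11, edgeR), at 21.2 and 145 CPM in mice 465 and 759 and 6.98 and 7.70 CPM in mice 26 and 22, alongside the pericyte and smooth muscle marker sums given above. DESeq2 called 2 nuclear genes and 1 mitochondrial gene lower there. The Cre effect in astrocytes differed between APPPS1 and amyloid-free mice in 0 members with edgeR and DESeq2, where 0.155% of all genes passed (0.14% higher and 0.015% lower), with 3 nuclear and 3 mitochondrial members at an unadjusted p under 0.05.

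Counts of mitochondrial genes were shared with nuclear copies. A block on chromosome 1 of GRCm38 holds unprocessed pseudogenes on the minus strand, and BLAST alignment put Gm28661 at 100% identity with mt-Co2 over 681 bases, Gm10925 with mt-Atp6 over 678, Gm28437 with mt-Co3 over 783 and Gm10222 with mt-Nd4l over 294. Each of these genes received close to an even part of the counts of the pair: the median share over the 13 astrocyte and 13 microglia libraries was 49.9% and 50.5% for mt-Co2, 51.1% and 50.3% for mt-Atp6, 54.4% and 54.1% for mt-Co3 and 46.5% and 45.3% for mt-Nd4l. mt-Co1 and mt-Nd4, whose copies Gm29216 and Gm28439 align with 31.3% and 63.6% of the gene, kept 97.3% and 96.8%, and 98.4% and 98.2%. With each copy added to its gene, all 13 mitochondrial members were lower in microglia.

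mt-Nd3 split the mice instead. Its copy Gm28438 differs from it at 1 of 345 aligned bases, T3C, counted from 1 at the 5′ end of mt-Nd3. The first 23 bases of the mitochondrial gene (GRCm38 chrM:9459-9481, plus strand) and the matching bases of the copy (chr1:24613097-24613119, minus strand) are shown because they hold that base, in capitals.
mt-Nd3: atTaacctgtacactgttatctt
Gm28438: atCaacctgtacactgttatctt
In mice 774, 469, 779 and 759, mt-Nd3 took 91.7% to 95.5% of the summed counts in both sorts. In the other 10 mice, mouse 459 included, it took 2.37% to 5.98% in both sorts. No library lay between, and exact 95% binomial intervals were at most 1.4 percentage points either side. The 4 mice were Cre-negative, 3 with APPPS1 and 1 without, and Cre-negative mice 439, 447 and 465 had the low share, as did all 7 Cre-positive mice.

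**Figure D5:**
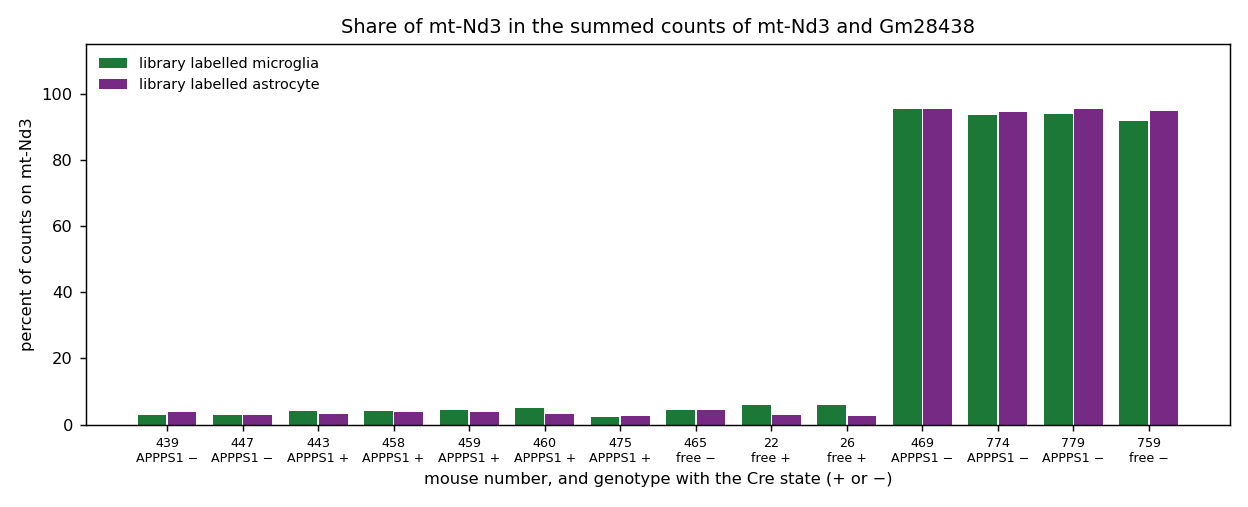
Share of mt-Nd3, in percent, in the summed counts of mt-Nd3 and its nuclear copy Gm28438, for each mouse, with the library labelled microglia in green and the library labelled astrocyte in purple. 4 mice stand at 91.7% or more in both libraries and 10 mice at 5.98% or less.

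The level of mt-Nd3 followed that split. In Cre-negative APPPS1 microglia mt-Nd3 was at 24.2, 43.5 and 61.7 CPM in mice 774, 469 and 779 and at 3.21 and 2.11 CPM in mice 447 and 439, against 1.99 to 3.27 CPM in the Cre-positive mice. The Cre difference was -3.39 ± 0.96 in APPPS1 microglia (adjusted p = 1, edgeR) and -3.51 ± 0.93 in APPPS1 astrocytes (adjusted p = 0.70, edgeR). Neither passed. The sum of mt-Nd3 and Gm28438 ran from 111 to 282 CPM in astrocytes and from 25.8 to 169 CPM in microglia.

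Promoters of nuclear members were searched for 4 motifs known from respiratory chain genes, over 250 bases before to 50 bases after the transcription start, in RefSeq sequence of GRCm38.p6. A promoter was found for 80 of the 97 nuclear members and for 17491 genes in all, and both strands were read for exact letters. The motif of NRF1, a factor named for nuclear respiratory genes, GCGCNTGCG, lay in 27 (33.75%) against 9.68% of all genes. The ETS family motif CCGGAAG lay in 21 (26.25%) against 12.9%, the YY1 motif ATGGCGG in 13 (16.25%) against 6.05% and the ERR motif TCAAGGTCA in 2 (2.5%) against 0.377%. Any of the 4 lay in 49 (61.25%) against 24.6%. Of the 17 nuclear members raised with amyloid in microglia, 14 had a promoter in the table and 10 of these held a motif, and of the 77 that did not pass 64 had one and 39 held a motif. The promoters of Cox6a1 and Uqcr11, each raised with amyloid, are shown with the matched letters of NRF1 and ETS motifs on either strand in capitals. Cox6a1 is at chr5:115348909-115349208 and Uqcr11 at chr10:80406772-80407071 of GRCm38.p6, both on the minus strand and read 5′ to 3′ along the gene.
Cox6a1: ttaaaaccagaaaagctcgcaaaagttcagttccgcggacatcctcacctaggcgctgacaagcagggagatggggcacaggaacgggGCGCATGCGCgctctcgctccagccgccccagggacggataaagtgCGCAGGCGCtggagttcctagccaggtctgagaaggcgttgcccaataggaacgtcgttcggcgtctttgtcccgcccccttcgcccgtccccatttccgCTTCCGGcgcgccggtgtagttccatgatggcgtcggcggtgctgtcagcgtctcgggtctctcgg
Uqcr11: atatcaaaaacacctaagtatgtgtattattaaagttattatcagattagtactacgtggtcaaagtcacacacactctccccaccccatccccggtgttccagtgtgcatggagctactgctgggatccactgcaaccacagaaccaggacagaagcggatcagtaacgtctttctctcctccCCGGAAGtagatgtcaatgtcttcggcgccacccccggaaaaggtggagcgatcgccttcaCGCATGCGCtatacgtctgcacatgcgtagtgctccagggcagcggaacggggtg
In Cox6a1 the capitals mark a pair of overlapping NRF1 matches, another NRF1 match and 1 ETS match, and in Uqcr11 1 ETS and 1 NRF1 match. A match is a string of letters and not a measured binding site.

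Further genes that serve the chain, including a few subunits outside the name prefixes, were counted from lists. Between the sorts, where 35.4% of all genes were higher and 41.1% lower, citric acid cycle genes were lower in microglia in 14 of 18 and higher in 0 (median -0.76), among them citrate synthase, Cs (-1.55), and the succinyl-CoA ligase subunit Suclg1 (-1.66). The list of electron carriers, ubiquinone synthesis genes and other subunits was lower in 17 of 20 and higher in 2. In it the complex III subunit cytochrome c1, Cyc1, stood at -1.34 and the ATP synthase inhibitor Atpif1 was higher at 1.96. The mitochondrial ribosome was lower in 39 and higher in 13 of 76 genes. Of 34 assembly factors with other names 16 were lower and 9 higher, the former including Cox10 (-2.29), an enzyme of heme A synthesis. The share of lower calls there was near that of all genes. In transcription and biogenesis genes 5 were lower and 9 higher of 20, and Ppargc1a, the coactivator PGC-1 alpha, differed by -10.5. Membrane carriers were lower in 7 and higher in 3 of 13, with the uncoupling protein gene Ucp2 higher (4.49) and the ADP/ATP carrier Slc25a4 lower (-1.99).

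With amyloid in microglia, where 6.06% of all genes were higher and 3.52% lower, 13 of 76 mitochondrial ribosome genes were higher and 0 lower (median 0.31), with Mrpl27 (0.70) and Mrpl12 (0.67) among them. Membrane carriers were higher in 3 of 13 and lower in 0 (median 0.41): the pyruvate carrier Mpc1 (0.77), Slc25a4 (0.65) and Slc25a5 (0.43). The citric acid cycle had 1 higher of 18, Suclg2 (0.63), with 17 positive. Electron carriers had 1 higher of 20, the ubiquinone synthesis gene Coq7 (0.83), and assembly factors with other names had 1 higher, Cmc2 (0.63), and 1 lower, Ttc19 (-0.83), of 34. Of 16 genes of mitochondrial RNA processing 1 was higher, Fastkd3 (0.56). Counts of 1 in lists of this size are near the share of all genes. All these list counts come from the comparison averaged over Cre. Its calls among the respiratory chain members were mostly lost on leaving out some single amyloid-free mice. In Cre-negative mice alone 0.313% of all genes passed. In transcription and biogenesis 2 of 19 were lower, Polg2 (-0.61), an accessory subunit of the mitochondrial DNA polymerase, and Ppargc1a (-4.53), and 0 were higher. Ppargc1a also had a wide error within APPPS1 microglia, where its Cre difference was -4.62 ± 1.83 and did not pass. Its level in CPM is not given here, so the size of its difference is uncertain.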

How the data were processed

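RNA was sequenced from 28 libraries of microglia and astrocytes of 14 mice. The authors deposited a table of raw counts per gene, whole numbers with no scaling, over 95966 rows of mouse and human genes. Per the submitters' processing notes, bcl2fastq, STAR 2.5.1a and featureCounts 1.4.6-p5 were used with GRCm38 and GRCh38. No source used here gives the strand setting, the multimapping rule or the annotation release. Overlapping mitochondrial genes (14 shared bases between mt-Nd5 and mt-Nd6 on opposite strands, 43 between mt-Atp8 and mt-Atp6) may share reads. Per the labels' protocols, total RNA was taken from cells of cortex, hippocampus and thalamus, and libraries were made with a SMARTer kit. Identical second rows of 258 gene identifiers were dropped.

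Mouse genes were tested with edgeR 4.0.16 (quasi-likelihood test, TMM scaling, filterByExpr with a minimum count of 10, 1 term per group) in R 4.3.3, within each sort on 13 libraries and between sorts on 26, with Benjamini-Hochberg adjustment over all genes tested. The test was checked on simulated data. CPM were computed from mouse counts. Copies of mitochondrial genes were aligned with BLAST 2.17.0. Microglia and astrocytes of a number came from the same mouse, so the mouse pairs the libraries. The correlation of their deviations from group means ran from -0.04 to 0.08 over 21612 genes where groups had over 2 mice.

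Alternatives were the libraries as labelled, DESeq2 1.42.0 and its size factors, no count filter, library sizes without mitochondrial genes, the compared groups alone, the mouse as a block and leaving out each mouse. After the data were seen, library totals without scaling, mitochondrial genes summed with their copies, and leaving out mice 22 and 26 were added. The members, lists and tests were chosen with earlier results of these data known. Named were the mitochondrial genes, the isoform pairs, up to 4 genes of lowest p per complex and list in each comparison, and markers. Others, such as the rest of a count of calls, were named after their values were seen.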

Additional observations from a re-analysis of the deposited data

Results flagged for a closer look

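Of 68 sets of 4 or 5 libraries tested, 4 had a library far from the rest of its group, where chance gives about 1 in 20. Cox7a2l was low at 90.7 CPM in the astrocytes of APPPS1 Cre-negative mouse 774. Cox4i2 was high at 45.9 CPM in those of mouse 439, the library of that group with the most pericyte and smooth muscle marker counts. Atp5b was high at 367 CPM in the microglia of APPPS1 Cre-positive mouse 475. mt-Co1 was high at 9662 CPM in the astrocytes of APPPS1 Cre-negative mouse 779. The effect of amyloid on Cox6a2 differed between the sorts by 4.17 on the log2 scale, by a test of the difference itself, and that call was lost with the mouse as a block. In astrocytes Cox6a2 had 114 counts over 13 libraries, so that side was near the floor.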

How the results depend on the processing

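Counts of nuclear members with amyloid in microglia, 17 averaged over Cre, were 0 with the libraries as labelled, 37 with DESeq2, 9 with library totals alone, 0 without mice 22 and 26, and 1 to 43 on leaving out 1 mouse. In Cre-positive mice the count of 8 became 0, 21 and 1 under the first 3 of these (0 to 19 on leaving out 1 mouse), and in Cre-negative mice 0 became 2 with DESeq2 and 2 with no filter (0 to 3). Mitochondrial counts averaged over Cre, 0 at first, were 3 with DESeq2, 2 with no filter and 3 with library totals (0 to 2), and in Cre-positive mice 2 became 0 as labelled, 5 with DESeq2 and 6 with library totals (0 to 5).

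For Cre without amyloid, DESeq2 called 1 mitochondrial member in microglia (0 to 6 on leaving out 1 mouse) and 2 nuclear (0 to 1) and 1 mitochondrial in astrocytes. For amyloid in Cre-positive astrocytes it called 1 nuclear member. The difference of the Cre effect by amyloid in microglia gave 0 to 1 mitochondrial calls on leaving out 1 mouse. Between sorts, on leaving out 1 mouse, nuclear and mitochondrial counts were 69 to 80 and 8 to 12 on average, 32 to 61 and 0 to 10 in amyloid-free Cre-negative, 32 to 58 and 0 to 1 in amyloid-free Cre-positive, 51 to 57 and 9 to 11 in APPPS1 Cre-negative and 45 to 56 and 9 to 12 in APPPS1 Cre-positive mice. With the libraries as labelled, the mitochondrial count of 10 in amyloid-free Cre-negative mice became 5, and in APPPS1 Cre-positive mice 51 nuclear and 11 mitochondrial calls became 0 and 0. With library totals, nuclear counts in APPPS1 mice were 85 without and 77 with Cre. The mitochondrial count of 1 in amyloid-free Cre-positive mice was 0 as labelled, with DESeq2 or its size factors, with no filter and with library totals. The difference in amyloid effect between sorts, 1 nuclear call, was 0 as labelled and without mice 22 and 26, 10 with DESeq2, and 0 to 11 on leaving out 1 mouse.

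With the replicate block (mouse), the mitochondrial count in amyloid-free Cre-positive mice was 2 and the nuclear difference in amyloid effect between sorts 0. No other count between sorts moved by over 1.5 times. With library totals, sort differences turned to -0.18 for Ndufa6, -0.25 for Ndufa9, -0.34 for Sdhd and -0.064 for Ndufaf8. With copies added, the Cre difference of mt-Nd3 in APPPS1 mice became 0.12 in microglia and 0.35 in astrocytes. The cause of these shifts was not tested. The amyloid-free groups hold 2 mice each, and counting error is small beside the spread between mice for the summed sets.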

Other observations

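The ratio of mitochondrial ribosomal RNA to mitochondrial messenger counts ran from 0.180 to 0.469 in microglia (median 0.243) and from 0.132 to 0.223 in astrocytes (median 0.149). The highest value was that of the microglia of mouse 26. mt-Nd6, the only protein-coding gene on the light strand of the mitochondrial genome, made up 1.96% to 2.63% of mitochondrial messenger counts in microglia and 1.21% to 1.88% in astrocytes, so that no library of either sort entered the range of the other. The strand setting of the counting is not known, so counts of mt-Nd6 may include reads from the opposite strand.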
